A study of Mus musculus with 18 samples.

Results

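The regions described here are genomic sites in mouse embryonic stem (ES) cells that GATA6 bound soon after its induction, that were already accessible before it, that SOX17 also bound, and at which a pluripotency transcription factor (PTF) peak was called only after induction. They were chosen by 4 deposited classes: Early in the GATA6 clustering, ectopic PTF, SOX17-bound, and moderate or accessible in untreated cells. The rule found 826 regions among the 42403 of the table (1.95%), 759 in the moderate and 67 in the accessible class. They made up 22.2% of the 3725 Early regions with ectopic PTF and SOX17. The rule selected on GATA6, SOX17, OCT4, SOX2 and ESRRB binding and on ATAC-seq signal at 0 h, so those values are given as a description and were not tested.

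The study used KH2 ES cells, a line of C57BL/6 x 129/Sv background in which doxycycline (Dox) switches on Gata6, cultured with LIF on inactivated feeder cells. The series has 18 MNase-seq libraries in 6 groups of 3, from untreated cells and from cells given 1 µg/mL Dox for 8, 16, 24, 48 or 96 h; MNase-seq values were not analysed here, and no library of the series enters a test. What was analysed is the authors' table, which holds classes, motif scores and 1 signal value per region, time and assay, made from other libraries of the same study. These signals are pooled over replicates, so they have no replicate error, and the depth behind each one is not known. The study's methods name 2 transgenic clones, G6.1 and G6.3, with the Oct4 knockdown made in G6.3. Extra-embryonic endoderm (XEN) cells, a stem cell line of the primitive endoderm (PrE) lineage, were a further reference in the table. No expression value was analysed here, so the cell type labels were not checked against marker genes. All signals are from bulk cells, in which fewer cells with an open or bound site and a weaker signal per cell cannot be told apart.

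GATA6 is a zinc-finger factor that drives the PrE, the lineage of the blastocyst that separates from the pluripotent epiblast and forms the yolk sac. SOX17 is an endoderm factor of the SOX family that acts downstream of GATA6. OCT4 and SOX2 bind together to a composite motif in pluripotent cells, and ESRRB is an orphan nuclear receptor of the same network. A PTF peak is called ectopic where it was absent from untreated ES cells and present after Dox.

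To place the regions, 3 classes were used that differ from them in 1 term of the rule. These were 2899 Early, ectopic PTF, SOX17 regions that were closed at 0 h (the closed class), 1923 Early SOX17 regions that were open and held PTFs from 0 h (the PTF-from-d0 class), and 560 Early SOX17 regions that were open and classed as without PTF peaks (the no-PTF class). Regions, not samples, are the units of all tests, so the intervals and p-values measure the spread among regions of pooled data. Neighbouring regions are not independent, and Fisher's exact tests and the intervals of the odds ratios do not allow for this. Ranges in brackets after a share are 95% Wilson intervals, which cover counting error only, and those after a log2 odds ratio are its 95% interval.

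The sequences near the GATA6 summits show what was scored. Motifs were searched on both strands with 4 matrices recovered from the deposited scores, whose highest-scoring words are GGGAGATAAGAAA for GATA6, CCCATTGTC for SOX17, CTTTGTTATGCAAAT for OCT4:SOX2 and TCAAGGTCATA for ESRRB. A match needs only the lowest score among deposited motifs (6.23, 7.18, 5.13 and 5), so matches differ from these words. The stretches below are the plus strand of GRCm38, named by the nearest start of a protein-coding transcript. Capitals mark, for each factor with a match within 100 bp of the summit, the match closest to the summit, and each stretch runs 5 bases past its outermost matches. The first set is of regions nearest to genes of the endoderm, basement membrane and pluripotency lists. Nearness to a start is the only link to these genes, and an effect on them was not tested.
Pdgfra (chr5:75210169-75210313): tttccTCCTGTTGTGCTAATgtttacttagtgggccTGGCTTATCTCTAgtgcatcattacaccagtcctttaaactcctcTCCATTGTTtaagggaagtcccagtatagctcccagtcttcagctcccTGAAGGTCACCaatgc
Sparc (chr11:55421344-55421406): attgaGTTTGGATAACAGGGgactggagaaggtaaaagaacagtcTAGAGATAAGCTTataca
Nid2 (chr14:19759903-19759938): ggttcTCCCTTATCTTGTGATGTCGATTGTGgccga
Klf5 (chr14:99304561-99304600): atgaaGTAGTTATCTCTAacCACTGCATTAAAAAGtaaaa
Zfp42 (chr8:43280770-43280826): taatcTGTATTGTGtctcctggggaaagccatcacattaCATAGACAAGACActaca
Klf4 (chr4:55583773-55583857): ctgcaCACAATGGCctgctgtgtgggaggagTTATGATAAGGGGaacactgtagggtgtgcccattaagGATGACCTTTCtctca

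In the stretch at Pdgfra, 48.4 kb from the start of the gene of a receptor tyrosine kinase that marks PrE, all 4 factors had a match. Its GATA6 match (score 12.1) lay 7 bp from the summit, and its ESRRB match (score 13.6) lay 85 bp away. In the stretch at Nid2, which encodes the basement membrane protein nidogen-2, the capitals run on without a gap. The OCT4:SOX2 match (score 6.22) overlapped both the GATA6 match (12.6) and the SOX17 match (7.42) there. The second set has the 5 regions with the highest deposited best GATA6 motif score, which ran from 15.0 to 15.1 of a possible 15.2.
D16Ertd472e (chr16:78619415-78619437): tgtatGAGAGATAAGAGAgggcc
Etv3 (chr3:87512494-87512516): tatctTTTCTTATCTCCGctctc
Maml3 (chr3:52102651-52102673): cctctCCCAGAGAAGAAAgctag
Gata2 (chr6:88189735-88189816): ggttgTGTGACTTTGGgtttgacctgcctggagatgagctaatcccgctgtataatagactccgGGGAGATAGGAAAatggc
Wars (chr12:108893300-108893331): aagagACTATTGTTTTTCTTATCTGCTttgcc

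The best GATA6 motif was not always the match nearest to the summit. At Wars, the gene of the cytosolic tryptophan-tRNA ligase, the best match (score 15.0) lay 7 bp from the summit and overlapped an OCT4:SOX2 match. At Maml3, a co-activator of Notch signalling, the match nearest to the summit scored 8.81 while the best of the region scored 15.05. At Gata2 these scores were 10.01 and 15.02, so the capitals there do not mark the best motif either. The third set has, among the regions whose GATA6 binding was classed as decreased after Oct4 knockdown, the 5 whose summit windows held motifs of the most factors.
Sec22a (chr16:35421650-35421777): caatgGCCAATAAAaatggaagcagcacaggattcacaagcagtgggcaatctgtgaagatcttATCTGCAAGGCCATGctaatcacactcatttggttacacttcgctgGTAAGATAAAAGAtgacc
Atxn10 (chr15:85294407-85294532): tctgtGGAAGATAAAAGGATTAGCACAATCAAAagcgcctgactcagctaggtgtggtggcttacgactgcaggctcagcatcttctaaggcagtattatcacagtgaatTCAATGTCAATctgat
Ralgds (chr2:28509694-28509811): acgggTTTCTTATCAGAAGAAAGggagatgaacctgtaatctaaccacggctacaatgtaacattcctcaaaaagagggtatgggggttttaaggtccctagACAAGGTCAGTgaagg
Bcat1 (chr6:145022543-145022718): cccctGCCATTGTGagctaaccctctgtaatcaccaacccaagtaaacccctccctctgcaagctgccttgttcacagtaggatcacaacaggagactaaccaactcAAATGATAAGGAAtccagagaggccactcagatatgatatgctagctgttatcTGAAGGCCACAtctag
Wnt3 (chr11:103817076-103817201): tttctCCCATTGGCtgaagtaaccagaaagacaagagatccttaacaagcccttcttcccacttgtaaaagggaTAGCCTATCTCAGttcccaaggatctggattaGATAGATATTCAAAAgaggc

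At Sec22a and Atxn10 all 4 factors had a match in the window, and at Ralgds, Bcat1 and Wnt3 3 had one. Some of the marked matches share bases. The OCT4:SOX2 match held the whole ESRRB match at Sec22a and the whole SOX17 match at Atxn10, and it overlapped the GATA6 match at Ralgds. Among the 41 regions of the decreased class, 2 held all 4 motifs, 5 held 3, 21 held 2, 11 held 1 and 2 held none. Among all 826 regions, 18 held all 4, 121 held 3, 308 held 2, 324 held 1 and 55 held none. The 5 stretches were picked for their number of motifs and do not stand for the decreased class.

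The regions lay at promoters more often than the closed and PTF-from-d0 classes, and their windows held more CpG than those of both. Promoters, taken as 1 kb to each side of any transcript start, held 218 of the 826 summits (26.4%, 23.5 to 29.5), while 327 lay in introns (39.6%), 252 between genes (30.5%) and 29 in exons (3.51%). Among all regions 12.4% of summits were at promoters. The promoter share was 6.48% in the closed class, a log2 odds ratio of 2.37 (95% interval 2.06 to 2.68; adjusted p = 2.72e-48, two-sided Fisher's exact test with Benjamini-Hochberg adjustment over 33 contrasts), and the regions had the higher share on 20 of 20 chromosomes. The closed class is set apart by 0 h accessibility alone, and promoter place went with accessibility within the regions (62.7% of accessible, 23.2% of moderate ones). The direction of this contrast is thus bound to the rule, and its p-value is no support for a separate trait. The promoter share was 14.0% in the PTF-from-d0 class (log2 odds ratio 1.14, 0.85 to 1.43; adjusted p = 2.79e-13, Fisher's exact test). It was 28.2% in the no-PTF class, where the log2 odds ratio of -0.13 had an interval of -0.48 to 0.21 (adjusted p = 0.578). Summit windows of 201 bp had a mean GC content of 48.4% (SD 6.16) and 3.65 CpG dinucleotides, compared with 43.8% and 1.82 in the closed, 46.4% and 2.36 in the PTF-from-d0 and 50.2% and 4.08 in the no-PTF class. The median width of a region was 877 bp, compared with 823, 1093 and 667 bp. The median distance from the summit to the nearest start of a protein-coding transcript was 8.92 kb, compared with 28.5, 17.3 and 7.66 kb in the same order.

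Before induction most of the regions carried the marks of enhancers or promoters. The authors' histone state, made from public ES cell data, was poised enhancer in 221 (26.8%, 23.9 to 29.9), active enhancer in 204 (24.7%, 21.9 to 27.8), primed enhancer in 180 (21.8%, 19.1 to 24.7) and promoter in 168 (20.3%, 17.7 to 23.2). Constitutive heterochromatin, facultative heterochromatin and the naive state, which lacks the marks used, held 33, 14 and 6 regions (4.00%, 1.70% and 0.726%). In the closed class 42.01% of regions were naive and 28.4% facultative heterochromatin, and 0.586% were active enhancers. The PTF-from-d0 class leaned to active enhancers (43.0%) and had fewer poised ones (10.6%), whereas the no-PTF class had 21.1% active enhancers, 29.6% poised ones and 20.4% promoters. The median H3K27ac signal in ES cells was 2.07 in the regions, 0.534 in the closed, 3.66 in the PTF-from-d0 and 1.87 in the no-PTF class, on the scale of the deposited histone columns. Median H3K4me3, the mark of promoters, was 1.17, 0.249, 0.803 and 1.19 in the same order. The accessibility class bears on the marks of open chromatin, so these shares carry no test.

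**Figure D1:**
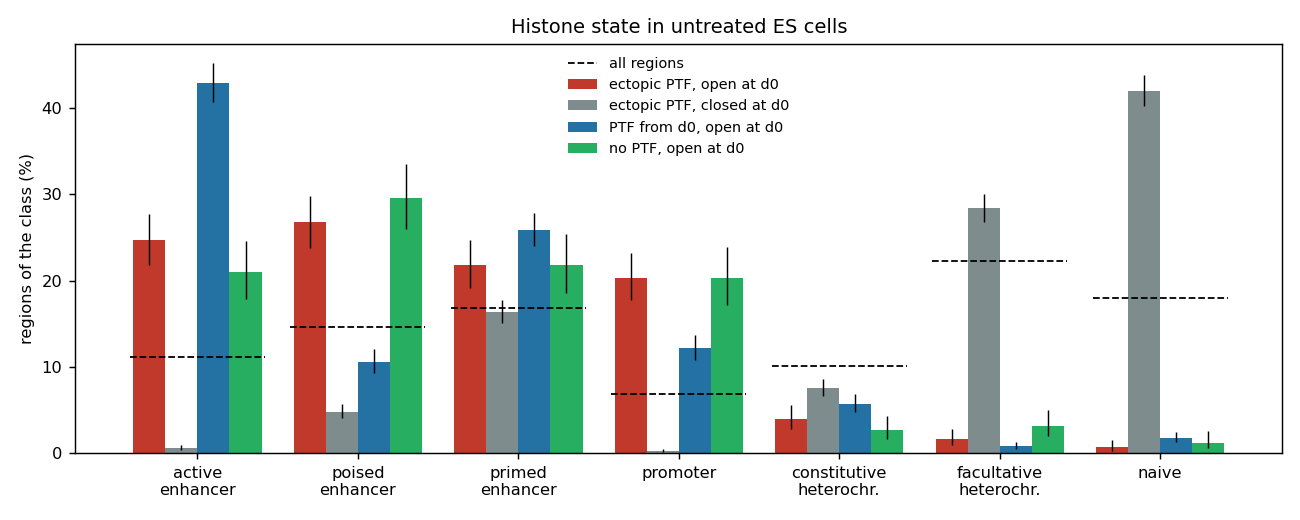
Share of regions in each histone state of untreated ES cells (y axis, %), for the regions described here (red) and 3 comparison classes; error bars are 95% Wilson intervals and dashed lines give the share among all regions. The red bars stand between 20.3% and 26.8% for the enhancer and promoter states and at 4.00% or less for the other 3.

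The ATAC-seq signal of the regions was near its starting level at 8 h and highest at 48 h. ATAC-seq reads short fragments cut in open chromatin, and the values below are the authors' signals per kb of region, with no scale given for the deposited columns. The median was 0.303 at 0 h, 0.293 at 8 h, 0.385 at 16 h, 0.510 at 24 h, 1.01 at 48 h and 0.741 at 96 h, and 0.410 in XEN cells. The highest value of a region fell at 48 h in 697 of 826 (84.4%) and at 96 h in 110 (13.3%), compared with 45.0% and 28.0% of all regions. Within a region the signal at 48 h was a median of 2.88 times that at 0 h (quartiles 2.13 and 3.97), with 667 regions (80.8%) at 2-fold or more and 821 (99.4%) above their 0 h value. Over all regions 47.4% were at 2-fold or more and 79.9% above. At 48 h the closed class had reached 0.592 per kb from 0.111, a median of 5.35 times, and remained below the regions. The PTF-from-d0 class began higher, at 0.379 per kb, and stood at 0.830 at 48 h and 0.489 at 96 h. Per kb the regions were thus above it from 48 h on, while per region, without division by width, the 48 h medians were 0.901 and 0.932. The no-PTF class began at 0.306 per kb, close to the regions, and reached 0.754. The value at 0 h belongs to the rule, so the folds have no test.

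The accessibility class is not a clean limit on this signal. In regions of the moderate class it ran from 0.115 to 0.831 per kb at 0 h, in the accessible class from 0.556 to 2.07, and in the closed class from 0.0247 to 0.488. Of the regions described, 167 lay below the value that 95% of closed regions stayed under.

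**Figure D2:**
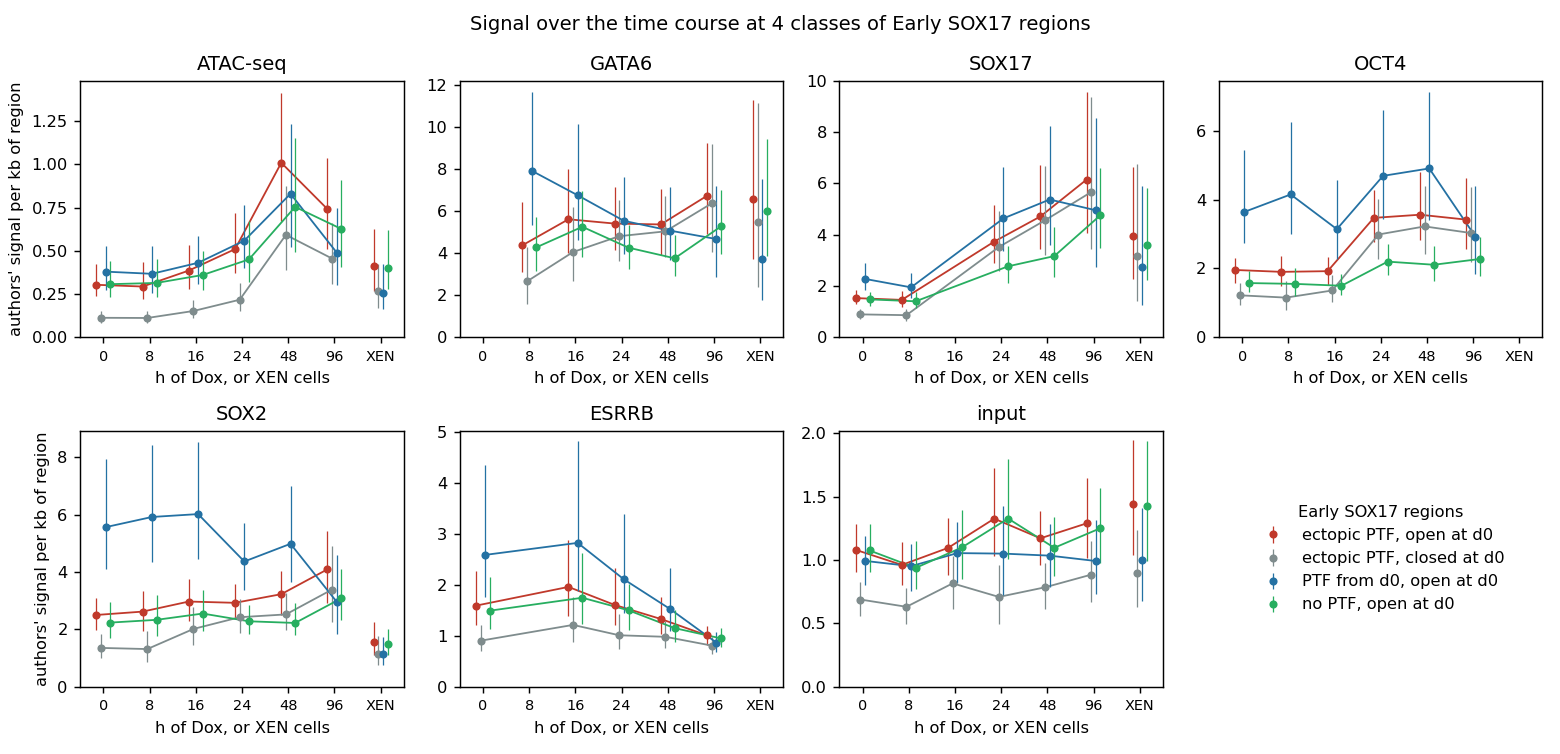
Medians of the authors' signal per kb of region (y axes) against hours of Dox or XEN cells (x axes, evenly spaced) for ATAC-seq, GATA6, SOX17, OCT4, SOX2, ESRRB and input, in the regions described here (red) and 3 comparison classes; bars span the quartiles over regions, not replicate error. Red OCT4 points step from 1.92 at 16 h to 3.47 at 24 h, and the red ATAC-seq points peak at 1.01 at 48 h.

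GATA6 signal was present at 8 h, and its median was highest at 96 h before any division by input. The median per kb was 4.36 at 8 h, 5.60 at 16 h, 5.40 at 24 h, 5.36 at 48 h and 6.72 at 96 h, and 6.57 in XEN cells. Divided by the input of the same time, the medians were 4.78, 5.17, 4.11, 4.58 and 5.14 in that order, highest at 16 h. The highest value of a region fell at 96 h in 410 of 826 (49.6%) and at 16 h in 197 (23.8%), compared with 37.8% and 17.9% of all regions. The PTF-from-d0 class ran the other way, from 7.92 at 8 h to 4.66 at 96 h. SOX17 signal was 1.52 per kb at 0 h and 1.45 at 8 h, then 3.73 at 24 h, 4.71 at 48 h and 6.15 at 96 h. It was highest at 96 h in 590 regions (71.4%; 48.3% of all regions), and within a region the 96 h value was a median of 4.11 times that at 0 h.

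The PTF signals followed different courses at the same regions. OCT4 stood at 1.95 per kb at 0 h, 1.90 at 8 h and 1.92 at 16 h, and at 3.47, 3.57 and 3.42 at 24, 48 and 96 h. In 796 of 826 regions (96.4%) the 48 h value was above that of 0 h, with a median of 1.91 times and 361 regions (43.7%) at 2-fold or more. Over all 42403 regions 63.5% were above and 20.6% at 2-fold or more. SOX2 stood at 2.50 at 0 h, 2.97 at 16 h, 2.92 at 24 h, 3.23 at 48 h and 4.09 at 96 h, and at 1.58 in XEN cells. Its highest value was at 96 h in 482 regions (58.4%; 38.3% of all regions). ESRRB was highest at 16 h in 541 regions (65.5%; 49.4% of all regions) and lowest at the end, with 1.59 per kb at 0 h, 1.962 at 16 h, 1.61 at 24 h, 1.33 at 48 h and 1.01 at 96 h. At 96 h, ESRRB was at least 2-fold below its 0 h value in 280 regions (33.9%), a share near the 34.4% of all regions. In the no-PTF class, OCT4 was 1.57 per kb at 0 h and 2.11 at 48 h, a median of 1.36 times within a region. In the PTF-from-d0 class SOX2 went from 5.56 per kb at 0 h to 2.96 at 96 h. Per kb, the regions with ectopic PTF stood above that class at 96 h. Divided by the input of the same time, the 96 h medians were close, at 3.10 in the regions and 2.96 in the PTF-from-d0 class. SOX2 over input in the regions was 2.27, 2.75, 2.14 and 2.68 at 0, 16, 24 and 48 h, so its rise per kb from 0 to 24 h did not hold there.

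Input signal, which has no antibody, differed between the classes and over time. In the regions it was 1.08 per kb at 0 h, 0.962 at 8 h, 1.33 at 24 h, 1.17 at 48 h and 1.29 at 96 h. At 0 h it was 0.689 in the closed, 0.994 in the PTF-from-d0 and 1.08 in the no-PTF class, and at 48 h 0.785, 1.03 and 1.10, so the order of the open classes was not that of their ATAC-seq signal. Divided by input, OCT4 in the regions went from 1.78 at 0 h to 3.03 at 48 h, and in the closed class from 1.77 to 4.15. By the plain signal per region the regions stood at 1.21 times the closed class for OCT4 at 48 h, and at 0.730 times after division by input. The part of input in these levels was not tested.

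Across the 826 regions, which share the same pooled libraries and widths, the signals per kb at 48 h ranked alike. Spearman's rho was 0.608 for GATA6 and SOX17, 0.602 for GATA6 and OCT4, 0.699 for SOX17 and SOX2, and 0.507 for GATA6 and input. The best GATA6 motif score had a rho of 0.321 with GATA6 signal at 8 h and of 0.0044 at 48 h, over the 780 regions with a motif.

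After Oct4 knockdown the share of the regions classed as losing GATA6 was near that of all regions. It was below the shares of the closed and PTF-from-d0 classes. The authors called each region decreased, increased or unchanged with DESeq2, from GATA6 ChIP-seq at 48 h of Dox with Oct4 (siOct4) or control (siCtl) siRNA. Of the 826 regions 41 were decreased (4.96%, 3.68 to 6.67), where 6.25% of all 42403 regions were, and 78 were increased (9.44%, 7.63 to 11.6), where 8.57% of all regions were. Both shares are near the background. The decreased share was 12.4% in the closed class, which also gained PTFs ectopically (log2 odds ratio -1.44, -1.92 to -0.96; adjusted p = 4.55e-10, Fisher's exact test with Benjamini-Hochberg adjustment), and was the lower in the regions on 19 of 20 chromosomes. It was 16.4% in the PTF-from-d0 class (log2 odds ratio -1.91, -2.40 to -1.43; adjusted p = 1.41e-17), lower in the regions on 20 of 20 chromosomes. It was 0.893% in the no-PTF class (log2 odds ratio 2.54, 1.19 to 3.88; adjusted p = 3.32e-05), higher in the regions on 17 of 20 chromosomes. Within 10 bins of equal GATA6 signal under siCtl, a comparison added after seeing the data, the first 2 log2 odds ratios were -1.38 and -1.995, but that to the no-PTF class was 1.32 with an adjusted p of 0.107.

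The increased share passed the test against the PTF-from-d0 class only. It was 9.56% in the closed class (log2 odds ratio -0.02, -0.40 to 0.36) and 9.82% in the no-PTF class (-0.06, -0.59 to 0.46), and neither contrast passed the test. It was 6.34% in the PTF-from-d0 class (0.62, 0.19 to 1.05; adjusted p = 0.00971), a contrast that no longer passed within bins of siCtl signal (0.49, adjusted p = 0.0634) or without promoters (0.57, adjusted p = 0.0505). In this contrast the regions had the higher share on only 12 of 20 chromosomes.

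The pooled signals of the knockdown, made in clone G6.3 and not on one scale with the time course, show the size of these shifts. Median GATA6 signal per region was 7.22 under siCtl and 7.51 under siOct4. Relative to the median of all regions, the median log2 ratio of siOct4 to siCtl was 0.07 in the regions (quartiles -0.15 and 0.35), -0.02 in the closed, -0.11 in the PTF-from-d0 and 0.20 in the no-PTF class. For SOX17, whose signal at all regions was 1.56 times as high under siOct4 as under siCtl, the centred medians were 0.05, -0.06, -0.13 and 0.23 in the same order. Among the 41 decreased regions the GATA6 log2 ratio ran from -1.65 to -0.51, and the SOX17 log2 ratio, centred on all regions, was below 0 in 39 of 41 with a median of -0.80. Without centring, SOX17 signal was lower under siOct4 in 26 of the 41 and higher in 15, with a median log2 ratio of -0.16, so the count rests on the centring. Among the 78 increased regions the centred SOX17 ratio was above 0 in 76, with a median of 0.62, and the plain ratio was above 0 in 78, as it was in 655 of the 707 unchanged regions.

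**Figure D3:**
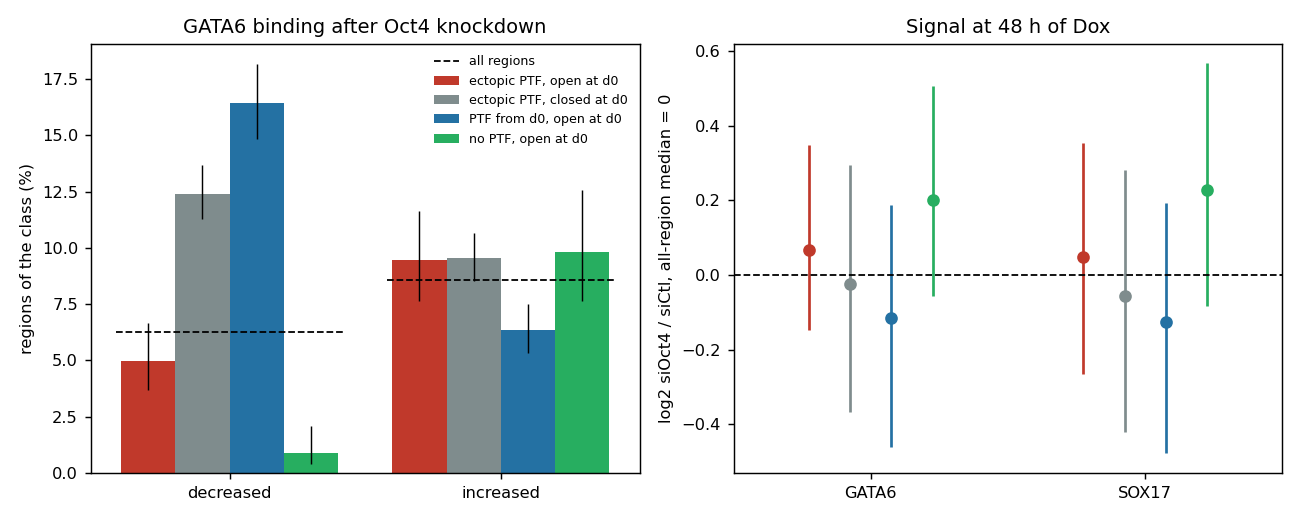
Left, share of regions called decreased or increased in GATA6 binding after Oct4 knockdown (y axis, %), with 95% Wilson intervals and dashed lines for all regions; right, median log2 ratio of siOct4 to siCtl signal at 48 h for GATA6 and SOX17 with the median of all regions set to 0, bars spanning the quartiles over regions. The red bar of the regions described here is at 4.96% in the decreased group, between 0.893% and 12.4%.

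The decreased share, 4.96% over the 826 regions and 6.25% over all 42403, was also split by place and state within the regions. The same split was not made over all regions. It therefore cannot be told whether a low share at promoters is particular to these regions. Of the 218 promoter regions 4 were decreased (1.83%, 0.716 to 4.62), compared with 21 of 327 in introns (6.42%, 4.24 to 9.62) and 14 of 252 between genes (5.56%, 3.34 to 9.11). By histone state, 1 of 168 promoter-state regions was decreased (0.595%), 8 of 204 active enhancers (3.92%, 2 to 7.55) and 18 of 221 poised enhancers (8.14%, 5.21 to 12.5). Of the 67 accessible regions 1 was decreased. The decreased regions had a median OCT4 signal at 48 h of 4.88 per kb, compared with 3.60 in the unchanged and 2.82 in the increased ones. A GATA6 motif lay in the summit window of 26 of 41 decreased regions (63.4%) and of 569 of 707 unchanged ones (80.5%). An ESRRB motif lay in 11 of 41 (26.8%) and in 91 of 707 (12.9%). For SOX17 it was 25 of 41 (61.0%) and 290 of 707 (41.0%). For OCT4:SOX2 it was 14 of 41 (34.15%) and 204 of 707 (28.85%). In the 78 increased regions the shares were 82.05% for GATA6, 12.8% for ESRRB, 56.4% for SOX17 and 34.6% for OCT4:SOX2. These splits within the regions were not tested.

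The accessible and moderate regions differed in place and base composition. Of the 67 accessible regions 62.7% were at promoters, compared with 23.2% of the 759 moderate ones, and their summit windows held a mean of 7.79 and 3.28 CpG. A GATA6 motif lay in 71.6% and 80.5% of windows and a SOX17 motif in 29.9% and 44.7%. The ATAC-seq signal at 48 h was a median of 2.05 times that at 0 h in the accessible and 3.002 times in the moderate regions, where the 0 h signal itself sets the class.

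GATA6, SOX17 and OCT4:SOX2 motifs at the summit differed in share between the regions and both the closed and the PTF-from-d0 class, and no contrast of motif share with the no-PTF class passed the test. The window of 100 bp to each side of the summit held a GATA6 motif in 659 of 826 regions (79.8%, 76.9 to 82.4), as in 77.1% of all summit windows. The share was 88.03% in the closed class (log2 odds ratio -0.90, -1.19 to -0.60; adjusted p = 2.89e-08) and 71.1% in the PTF-from-d0 class (0.68, 0.40 to 0.96; adjusted p = 5.79e-06). It was 81.1% in the no-PTF class (-0.12, -0.51 to 0.27; adjusted p = 0.686). All these are Fisher's exact tests with Benjamini-Hochberg adjustment. Counted over whole regions, the contrast with the PTF-from-d0 class was 0.14 (adjusted p = 0.660).

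The composite OCT4:SOX2 motif was scarcer than where PTFs stood from the start, a class chosen by OCT4, SOX2 or ESRRB peaks at 0 h. The direction of that contrast is thus bound to the rule, and its p-value is no support for a separate trait. The motif lay in 245 summit windows (29.7%, 26.7 to 32.9), while 41.8% of all windows held it. The share was 49.6% in the PTF-from-d0 class (log2 odds ratio -1.22, -1.47 to -0.97; adjusted p = 2.33e-21) and 37.1% in the closed class (-0.48, -0.72 to -0.24; adjusted p = 0.000207). Among motifs that scored at least 10 the latter contrast was -0.37 (adjusted p = 0.274). In the no-PTF class it was 25.2%, a log2 odds ratio of 0.33 whose interval of -0.02 to 0.68 includes 0 (adjusted p = 0.115). Counted over whole regions, which were wider than those of the no-PTF class, the motif was in 77.9% against 63.2% (log2 odds ratio 1.03, adjusted p = 1.72e-08).

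A SOX17 motif lay in 359 summit windows (43.5%, 40.1 to 46.9), close to the 43.1% of all windows. The closed class had 50.8% (log2 odds ratio -0.42, -0.65 to -0.20; adjusted p = 0.000529) and the PTF-from-d0 class 54.3% (-0.63, -0.86 to -0.39; adjusted p = 7.13e-07). The contrast with the closed class was -0.25 without promoters (adjusted p = 0.106) and -0.27 among motifs that scored at least 10 (adjusted p = 0.0939). The no-PTF class had 44.6% (-0.07, -0.38 to 0.24; adjusted p = 0.769). Where a window held both a SOX17 and an OCT4:SOX2 motif, the best of each overlapped in 22 of 124 windows (17.7%; 19.7% among all regions), so the counts are not independent.

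An ESRRB motif lay in 112 summit windows (13.6%, 11.4 to 16.1), where 14.9% of all windows held one. The share was 17.5% in the PTF-from-d0 class (log2 odds ratio -0.44, -0.77 to -0.10; adjusted p = 0.0159), a contrast that did not pass without promoters (-0.34, adjusted p = 0.134). ESRRB peaks at 0 h also define that class, so this direction is bound to the rule too. The share was 12.97% in the closed class (0.07, -0.25 to 0.40) and 15.2% in the no-PTF class (-0.19, -0.63 to 0.25), neither of which passed. Over whole regions, these contrasts were 0.25 (adjusted p = 0.0436) and 0.65 (adjusted p = 0.000101). In 55 windows (6.66%, 5.15 to 8.57) no motif of the 4 factors was found, and in 18 (2.18%) all 4 were.

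**Figure D4:**
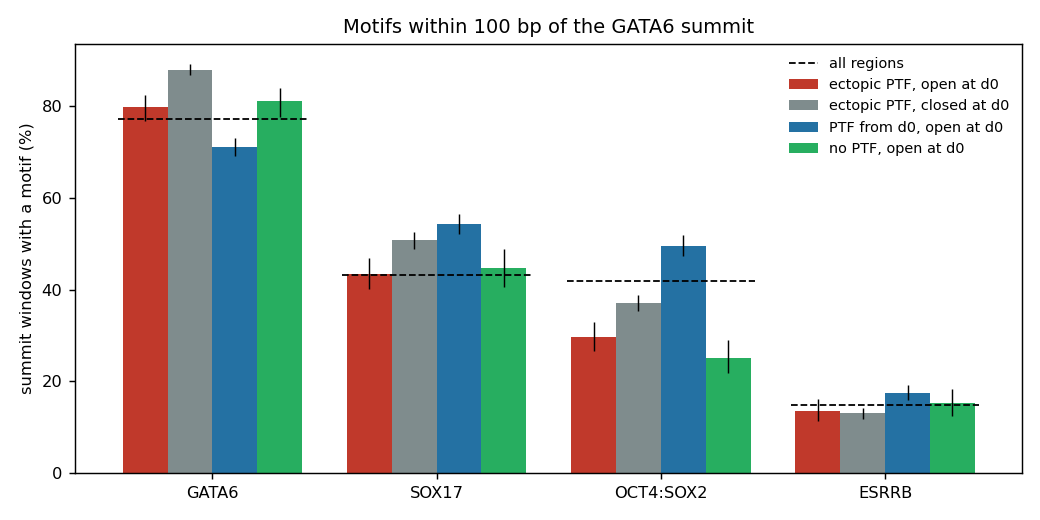
Share of summit windows of 201 bp that hold a motif of each factor (y axis, %) in the regions described here (red) and 3 comparison classes; error bars are 95% Wilson intervals and dashed lines give the share among all regions. For OCT4:SOX2 the red bar is at 29.7% and the bar of regions with PTFs from 0 h at 49.6%.

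Best motif scores of OCT4:SOX2 and ESRRB against the PTF-from-d0 class are again bound to the rule in direction. The strength of the best motif gave the same order for OCT4:SOX2. Its mean deposited best score was 8.16 in the 643 regions with such a motif, 9.90 in the PTF-from-d0 class (difference -1.74, SE 0.11; adjusted p = 2.23e-11), 8.53 in the closed class (-0.37, SE 0.08; adjusted p = 0.000601) and 7.79 in the no-PTF class (0.37, SE 0.12; adjusted p = 0.0140). These come from a fit of 1 mean per class over all regions with standard errors clustered by chromosome. The last difference was 0.16 within bins of region width (adjusted p = 0.407). The mean best GATA6 score was 10.5, compared with 11.1 in the closed class (-0.59, SE 0.07; adjusted p = 2.66e-07), and the differences from the PTF-from-d0 and no-PTF classes were 0.00 (-0.18 to 0.18) and -0.08 (-0.29 to 0.14). Within bins of width these were 0.45 (adjusted p = 5.68e-06) and -0.56 (adjusted p = 0.000183), so the direction against the PTF-from-d0 class depends on width. The mean best SOX17 score was 9.95, with differences of -0.19 from the closed class (SE 0.06; adjusted p = 0.0119), -0.30 from the PTF-from-d0 class (SE 0.08; adjusted p = 0.00211) and 0.12 from the no-PTF class (SE 0.13; adjusted p = 0.503). For ESRRB the mean was 8.98, with differences of 0.46 from the closed class (SE 0.17; adjusted p = 0.0205), -0.64 from the PTF-from-d0 class (SE 0.19; adjusted p = 0.00584) and 0.37 from the no-PTF class (SE 0.31; adjusted p = 0.348). Of these score differences, 4 passed neither with the best motif of the summit window nor with the mean score of all motifs: SOX17 and OCT4:SOX2 against the closed class, SOX17 against the PTF-from-d0 class and OCT4:SOX2 against the no-PTF class. ESRRB did not pass against the closed class with the former or against the PTF-from-d0 class with the latter.

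Of the 11 PrE regulators reported, 4 were the nearest protein-coding gene of a region, each of 1 region: Gata6, Gata4, Foxa2 and Pdgfra. They make 4 of the 143 regions of the table nearest to these PrE regulators (2.80%), where 1.95% of all regions are of the class. The region at Gata6 (chr18:11051211-11053515) covered the promoter, with its summit 35 bp upstream of a transcript start. Its ATAC-seq signal was 0.860, 0.830, 1.19, 1.46, 3.42 and 3.49 at 0, 8, 16, 24, 48 and 96 h, and its OCT4 signal was 2.87 at 0 h, 6.28 at 48 h and 10.7 at 96 h. Its GATA6 signal was 15.7 under siCtl and 17.5 under siOct4, and it was classed as unchanged.

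The Pdgfra region had ATAC-seq signals of 0.210, 0.552 and 0.396 and SOX17 signals of 1.21, 6.58 and 10.5 at 0, 48 and 96 h. This region was classed as unchanged in GATA6 binding, with a GATA6 signal of 4.42 under siCtl and 6.99 under siOct4. None of the 4 regions of the list was classed as decreased and 2 were increased, where 6.25% and 8.57% of all regions were. The 2, named here after their values were seen, are the regions at Foxa2 and Gata4. With only 4 regions, these counts are not read as a trait. Foxa2 encodes a forkhead factor of the endoderm, and its region had a GATA6 signal of 8.07 under siCtl and 12.8 under siOct4. The region at Gata4, a relative of Gata6, had 8.22 and 12.8. They lay 77.2 and 70.8 kb from the start of their genes.

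Of 13 genes of the basement membrane and secreted products, Hspg2, Lama1, Nid2 and Sparc were nearest to 5 regions, 3.97% of the 126 regions nearest to the list. The region at Lama1 (chr17:67696933-67697293), a laminin chain of the PrE basement membrane, had its summit 126 bp upstream of the start and held none of the 4 motifs. It was accessible at 0 h (0.746) and had ATAC-seq signals of 1.45 at 48 h and 1.14 at 96 h, with GATA6 signals of 1.20 at 8 h and 2.74 at 96 h. Sparc, a secreted matrix glycoprotein, had a region 1.05 kb from its start with a GATA6 signal of 6.14 at 8 h, 5.24 at 48 h and 6.07 at 96 h. The Nid2 region had 7.40, 8.78 and 11.4 at those times. All 5 regions were classed as unchanged after Oct4 knockdown, as were 85.2% of all regions.

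Of 16 pluripotency genes, Klf4, Klf5, Sall4 and Zfp42 were nearest to 5 regions, 2.67% of the 187 regions nearest to the list. Klf4 and Klf5 are Krüppel-like factors of the naive network, and Zfp42 encodes REX1, a marker of ES cells. At Zfp42 GATA6 signal was 0.536 at 8 h, 3.64 at 48 h and 7.28 at 96 h, and ATAC-seq signal was 0.0814 at 0 h and 0.355 at 48 h. The Klf4 region, 51.4 kb upstream of the start, had a GATA6 signal of 3.11 at 8 h, 2.71 at 48 h and 1.99 at 96 h. Under siOct4 its centred log2 ratio was -0.66 for GATA6 and -0.92 for SOX17, and it was classed as unchanged. In all 5 the 48 h ATAC-seq signal was at least 2.06 times that of 0 h. No region had a gene of the visceral endoderm list (11 genes) or of the FGF and RAS list (14 genes) as its nearest gene. Of all regions of the table, 66 and 119 did. As the class makes up 1.95% of the table, few would be looked for among so few regions, and the absence is not read as a trait.

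The 5 described regions of the decreased class lost GATA6 signal in different measure. At Wnt3, a WNT ligand, GATA6 signal was 14.3 under siCtl and 5.38 under siOct4, a centred log2 ratio of -1.41, and SOX17, with 5.96 and 3.56, had -1.38. Its OCT4 signal was 2.57 at 0 h, 7.95 at 48 h and 1.89 at 96 h, and its GATA6 signal was 9.81 at 48 h and 2.65 at 96 h. At Sec22a GATA6 was 10.6 under siCtl and 5.56 under siOct4, at Ralgds, an exchange factor for Ral GTPases, 4.91 and 2.64, and at Bcat1, a branched-chain aminotransferase, 12.1 and 8.18. At Atxn10 it was 8.23 and 5.41, and SOX17 had a centred log2 ratio of 0.30, the only one above 0 of the 5. Without centring, SOX17 signal was higher under siOct4 in all of them but Wnt3, as at Sec22a with 2.42 under siCtl and 3.34 under siOct4. In all 5 the ATAC-seq signal was lower at 96 h than at 48 h. Over the 826 regions the 96 h value was above that of 48 h in 112 (13.6%).

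**Figure D5:**
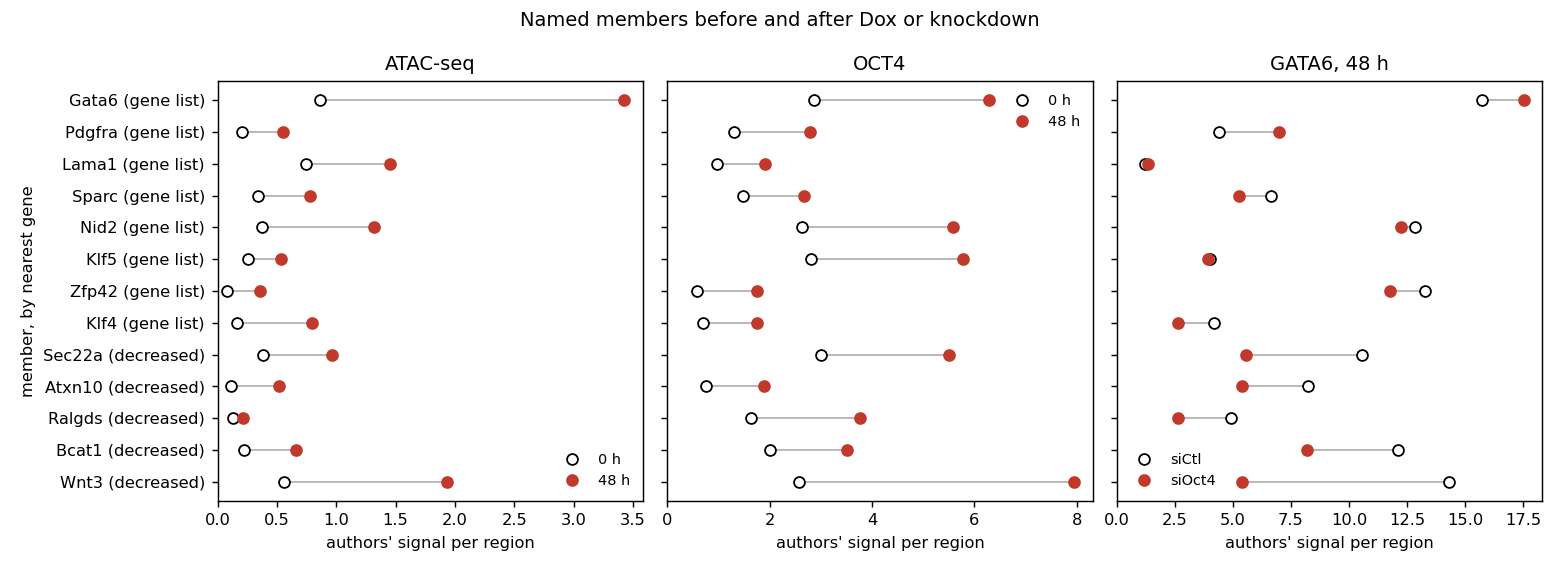
Authors' signal per region (x axes) of the described members, one per line and labelled by nearest gene, for ATAC-seq and OCT4 at 0 h (open) and 48 h (red) and for GATA6 at 48 h under siCtl (open) and siOct4 (red); 1 pooled value per point, no error. The red points lie right of the open ones for ATAC-seq and OCT4 in every line. For GATA6 they lie left in the 5 lines of the decreased class, where the class fixed the direction. They also lie left at Sparc, Nid2, Klf5, Zfp42 and Klf4, and right at Gata6, Pdgfra and Lama1.

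The regions were spread over 725 nearest genes, 647 of them with 1 region each. Smad7, an inhibitor of TGF-beta signalling, was nearest to 6 regions, of the 23 of the table nearest to it, and Etl4 to 5 of 41. At Smad7 the 48 h ATAC-seq signal was 2.64 to 5.79 times that of 0 h, and at Etl4 2.51 to 6.40 times. All 6 regions at Smad7 were unchanged after Oct4 knockdown, as were 85.2% of all regions. Etl4 had 1 region decreased and 1 increased, where 6.25% and 8.57% of all regions were. Hes1, Rbpms, Rps6ka1, Sgk1 and Tcf7l2 tied for the third place with 4 regions each.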

How the data were processed

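The 18 MNase-seq samples were grouped by Dox time from their labels, and their values were not analysed here. The table of 42403 GATA6 regions (mm10) was used. Per the study's methods, the authors called peaks with MACS2 on merged replicates, took GATA6 clusters from k-means and SOX17 and PTF classes from peak calls, and deposited signals as library-size corrected reads per region, which are not divided by width and pool replicates; the scale of the deposited ATAC-seq columns is not stated. The authors deposited FIMO scores for JASPAR motifs and a DESeq2 class for Oct4 knockdown. The study gives an average library depth, but not that behind each column, and 4 signal columns were left out.

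Signals were divided by width for values per kb. The 4 motif matrices were recovered from deposited scores and scanned over 201 bp around summits of the RefSeq GRCm38 genome. Promoters lay within 1 kb of a GENCODE transcript start. Shares were compared with two-sided Fisher's exact tests, and scores by class means with chromosome-clustered errors, adjusted over 33 contrasts by Benjamini-Hochberg (threshold 0.05). Both were tested on simulated regions that were independent of each other, which does not cover the dependence of neighbouring regions. Alternatives were bins of width, accessibility class, promoters, search space, score limit and summary. Named regions were the nearest to the start for up to 3 genes of each list, the 5 with the highest GATA6 score and the 5 decreased with most motifs. A gene of the PrE list is not reported here and was left out of that list's counts. The members and lists were chosen with earlier results of these data known. Python 3.11.15, scipy 1.17.1 and statsmodels 0.14.6 were used.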

Additional observations from a re-analysis of the deposited data

How the results depend on the processing

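Of the recomputed values, 185 kept their direction and call, 28 turned sign, 25 lost a call, 6 gained one and 5 moved. In the lists that follow, share is a log2 odds ratio of motif share and score a difference in score, each against the class named, and the cause of a change was not tested. With accessible regions only, the sign turned, to -0.62 for increased against PTF-from-d0, 0.23 for ESRRB share against PTF-from-d0, 0.20 for GATA6 score against PTF-from-d0, 2.11 for increased against no-PTF, 0.38 for GATA6 share against no-PTF, -0.16 for OCT4:SOX2 share against no-PTF, 2.41 for ESRRB share against no-PTF, -0.051 for SOX17 score against no-PTF and -0.18 for OCT4:SOX2 score against no-PTF. With accessible regions only, the call was lost, at 0.032 for ESRRB score against closed, 0.72 for GATA6 share against PTF-from-d0 and 1.35 for decreased against no-PTF. With moderate regions only, the sign turned, to 0.075 for increased against closed and 0.030 for promoter share against no-PTF. Without promoters, the sign turned, to 0.016 for increased against closed and 0.0047 for GATA6 score against PTF-from-d0. Without promoters, the call was lost, at -0.25 for SOX17 share against closed, -0.079 for SOX17 score against closed, 0.37 for ESRRB score against closed, 0.57 for increased against PTF-from-d0, -0.34 for ESRRB share against PTF-from-d0 and -0.18 for SOX17 score against PTF-from-d0. Among motifs scoring at least 10, the sign turned, to 0.15 for SOX17 share against no-PTF and 0.24 for ESRRB share against no-PTF. Among motifs scoring at least 10, the call was lost, at -0.27 for SOX17 share against closed and -0.37 for OCT4:SOX2 share against closed. Among motifs scoring at least 10, a call was gained, at 1.19 for ESRRB share against closed. Over whole regions, the sign turned, to 0.60 for GATA6 share against no-PTF, 0.30 for SOX17 share against no-PTF and 0.65 for ESRRB share against no-PTF. Over whole regions, the call was lost, at 0.14 for GATA6 share against PTF-from-d0. Over whole regions, a call was gained, at 0.25 for ESRRB share against closed and 1.03 for OCT4:SOX2 share against no-PTF. Within 50 bp of the summit, the sign turned, to -0.022 for ESRRB share against closed. Within 50 bp of the summit, the call was lost, at -0.22 for ESRRB share against PTF-from-d0. Within 10 bins of width, the sign turned, to 0.45 for GATA6 score against PTF-from-d0 and 0.29 for SOX17 share against no-PTF. Within 10 bins of width, the call was lost, at -0.39 for ESRRB score against PTF-from-d0 and 0.16 for OCT4:SOX2 score against no-PTF. Within 10 bins of width, a call was gained, at 0.44 for OCT4:SOX2 share against no-PTF and -0.56 for GATA6 score against no-PTF. With the best motif of the summit window, the sign turned, to 0.0081 for SOX17 score against closed, 0.087 for GATA6 score against PTF-from-d0, 0.036 for SOX17 score against PTF-from-d0 and -0.17 for ESRRB score against no-PTF. With the best motif of the summit window, the call was lost, at -0.17 for OCT4:SOX2 score against closed, 0.69 for ESRRB score against closed and 0.059 for OCT4:SOX2 score against no-PTF. With the mean score of all motifs, the sign turned, to 0.15 for GATA6 score against PTF-from-d0 and -0.037 for SOX17 score against no-PTF. With the mean score of all motifs, the call was lost, at -0.079 for SOX17 score against closed, -0.084 for OCT4:SOX2 score against closed, -0.0013 for SOX17 score against PTF-from-d0, -0.19 for ESRRB score against PTF-from-d0 and 0.057 for OCT4:SOX2 score against no-PTF. With the mean score of all motifs, a call was gained, at -0.32 for GATA6 score against no-PTF. Within 10 bins of siCtl signal, the sign turned, to 0.20 for increased against no-PTF. Within 10 bins of siCtl signal, the call was lost, at 0.49 for increased against PTF-from-d0 and 1.32 for decreased against no-PTF. Divided by input, the 48 h median of the regions relative to the closed class was 0.702 for GATA6, 0.664 for SOX17, 0.730 for OCT4, 0.829 for SOX2 and 0.929 for ESRRB, compared with 1.17, 1.16, 1.21, 1.35 and 1.48 without division. The bins of siCtl signal and the division by input were chosen after seeing the data. The contrasts of the decreased share with the closed and the PTF-from-d0 class, and of the OCT4:SOX2 share and score with the PTF-from-d0 class, kept sign and call under every alternative run for them. The direction of the OCT4:SOX2 contrasts is bound to the rule, so their stability is no support for a separate trait. No paired analysis was possible because no sample of the series enters a test and the columns carry no replicate numbers. The depth behind each pooled signal is not known, so its counting error could not be given.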

Other observations

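The best GATA6 motif of the summit window was centred within 20 bp of the summit in 243 of the 659 windows that held one (36.9%, 33.3 to 40.6), and in 34.1% of such windows over all regions. An OCT4:SOX2 or ESRRB motif lay in 315 of the 826 summit windows (38.1%, 34.9 to 41.5), where 50.4% of all windows held one. Across the 826 regions the log2 ratios of siOct4 to siCtl for GATA6 and SOX17 had a Spearman's rho of 0.637, with both ratios made from pooled libraries of the same knockdown.

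The regions lay on 20 chromosomes, with the most on chromosome 4 (72) and the fewest on X (9). Their median gap to the next was 1103 kb, and 42 gaps were within 10 kb.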
